A study of Homo sapiens with 4 samples.

Results

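The 6 genes of type IV collagen, COL4A1 to COL4A6, were followed through 4 long-read RNA libraries from human induced neurons. They were picked by gene symbol from the 77973 genes of the deposited gene table, and they were picked because COL4A5 and COL4A6 were already known to be nearly absent from the azacytidine libraries of this series. Their azacytidine values are therefore given as a description, without a test.

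Type IV collagen is the collagen of basement membranes, the thin sheets of matrix that lie under epithelia, around vessels and on the surface of the developing brain. Each chain carries a long repeat of glycine and other residues, and chains wind together in trios of fixed composition before secretion and then join into a network. COL4A1 and COL4A2 chains occur in nearly all basement membranes. COL4A3, COL4A4 and COL4A5 chains make the network of the kidney filter, the inner ear and the lens, and their loss gives Alport syndrome. The genes lie in head-to-head pairs: the members of a pair start close together, are read away from each other and share the promoter between them.

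Each library came from the same engineered KOLF2.1J pluripotent stem cell line, which carries NGN2, a factor that turns stem cells into neurons, under a promoter switched on by doxycycline, and a dCas9-BFP-KRAB repressor for gene silencing by guide RNA (CRISPRi). The control carried a non-targeting guide, the knockdown a guide against TDP-43, an RNA-binding protein encoded by TARDBP. The azacytidine library is named as a control for the knockdown and was treated with 5 µM 5-azacytidine, a cytidine analogue that traps DNA methyltransferases, for 72 h, and the combined library had the treatment and the knockdown. Spheroids were plated on day 8, and cultures were harvested on day 12 or 15; the day of each library was not given. Cells were puromycin-selected pools of 1 line, and each of the 4 groups had 1 library, so every p-value below compares the reads of 2 libraries and not the conditions.

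The libraries held between 466337 and 767621 reads on genes. TARDBP, the targeted gene, had 104 reads in the control, 72 after knockdown, 73 after azacytidine and 43 after both. Its level with the knockdown was 62.6% of the control without azacytidine (adjusted p = 0.0213, exact binomial test) and 60.1% with it (adjusted p = 0.0738), so the remaining transcript was the larger part in both pairs. Pan-neuronal markers were high in every library, with a summed level between 2082 and 2884 CPM, reads scaled to a common library size. Harvest, plating and any other difference between single libraries cannot be told apart from the treatments.

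The sequences between the start sites of the pairs set them apart. They are shown on the plus strand of GRCh38.p14, from RefSeq, 5′ to 3′, with every CpG dinucleotide, the site of DNA methylation, in capitals. All 6 genes matched the RefSeq table, COL4A6 with 2 start sites. For COL4A1 and COL4A2 the stretch lies between the outermost exons annotated there (chr13:110307203-110307257), for COL4A5 it is the bases next to its start on the side of COL4A6 (chrX:108439588-108439837), and for COL4A6 it is the stretch upstream of the inner of its start sites (chrX:108438431-108438672).

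COL4A1 and COL4A2: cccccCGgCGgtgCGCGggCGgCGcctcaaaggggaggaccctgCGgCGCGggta
COL4A5 and COL4A6: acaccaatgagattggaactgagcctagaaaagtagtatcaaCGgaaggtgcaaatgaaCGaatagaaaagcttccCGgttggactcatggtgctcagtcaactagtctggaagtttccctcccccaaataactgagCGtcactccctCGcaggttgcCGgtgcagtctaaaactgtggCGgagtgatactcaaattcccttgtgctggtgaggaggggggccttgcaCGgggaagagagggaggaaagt
COL4A6 inner start: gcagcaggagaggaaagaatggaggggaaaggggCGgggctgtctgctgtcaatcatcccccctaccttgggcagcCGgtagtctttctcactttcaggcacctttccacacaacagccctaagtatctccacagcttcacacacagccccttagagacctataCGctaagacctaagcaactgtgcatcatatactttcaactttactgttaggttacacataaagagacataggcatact

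The COL4A1 and COL4A2 stretch holds 9 CpG in 55 bases, against 8 in 250 bases beside COL4A5 and 3 in 242 bases at the inner COL4A6 start. Measured from start site to start site, the COL4A1 and COL4A2 pair was 126 bases apart with 15.9 CpG per 100 bases. The COL4A3 and COL4A4 pair was 418 bases apart with 7.66 CpG per 100 bases. The COL4A5 and COL4A6 pair was 379 bases apart with 3.17 CpG per 100 bases. No methylation was measured in these libraries.

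The promoter windows of RefSeq, from 250 bases before to 50 after each start, gave the same order. COL4A1 and COL4A2 each had 45 CpG in their 300 bases, more than 96.5% of the 35116 windows of all genes. Their windows overlap, so many of these CpG were counted for both. COL4A4 had 29 and COL4A3 24. COL4A5 had 8, the COL4A6 start next to it 7 and the inner COL4A6 start 5, all below the median of 14 and above the lower quartile of 4 CpG.

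Common promoter motifs were searched on both strands of the same windows, counting overlaps. The GC box GGGCGG, present in 45.0% of all windows, occurred 2 times at COL4A1, 1 time at COL4A2, 2 times at COL4A3 and 1 time at the inner COL4A6 start, and not at COL4A4, COL4A5 or the COL4A6 start beside it. The box CCAAT, present in 34.6% of windows, occurred 2 times at COL4A5, 3 times at the COL4A6 start beside it and 1 time each at COL4A1 and COL4A2. The windows of a pair overlap, so the same box can count for both genes. Between the start sites there were 3 CCAAT boxes for COL4A5 and COL4A6 and 1 for COL4A1 and COL4A2. The box TATAAA, present in 11.5% of windows, was in none of the member windows. A match is a run of letters and not a measured binding site.

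**Figure D1:**
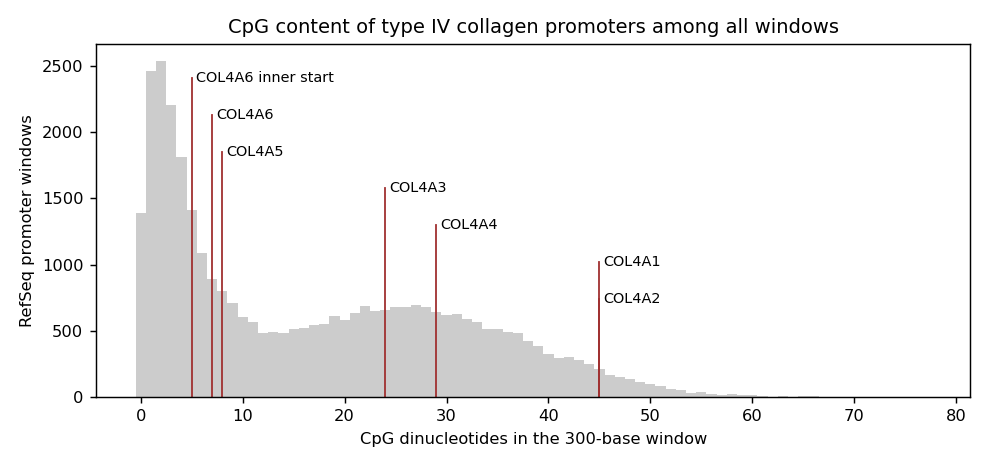
Number of RefSeq promoter windows (y axis) by the number of CpG dinucleotides in their 300 bases (x axis), with the member windows marked. COL4A1 and COL4A2 stand at 45 CpG, while COL4A5 and both COL4A6 starts stand at 5 to 8, below the median window of 14.

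The X-linked pair was the most read in cells without azacytidine and was all but missing with it. COL4A6 (ENSG00000197565.17, chromosome X, 108155607 to 108439497, minus strand) encodes the alpha 6 chain, found with the alpha 5 chain in basement membranes of skin and smooth muscle. It had 103 reads in the control, 114 after knockdown, 0 after azacytidine and 0 after both. Its levels were 166 CPM in each library without azacytidine. Both azacytidine libraries lay below both others, as they did for 27.9% of all genes tested, and the gene was chosen for this pattern.

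COL4A5 (ENSG00000188153.14, chromosome X, 108439838 to 108697545, plus strand) encodes the alpha 5 chain and is the gene of X-linked Alport syndrome. It had 76 reads in the control, 165 after knockdown, 0 after azacytidine and 1 after both, or 123, 241, 0 and 2.06 CPM. As for its neighbour, both azacytidine libraries lay below the others, again the values it was chosen for. A count of 0 allows up to 3 reads. With 3 reads in place of 0, COL4A6 was 27.4-fold lower without the knockdown and 26.9-fold lower with it. These folds leave out the counting error of the other library. The 95% counting intervals of the COL4A6 log2 ratios ended at -4.45 and -4.43. By the same measure COL4A5 was 20.2-fold lower without the knockdown, with an interval that ended at -4.00. With the knockdown, its log2 ratio of 1 to 165 reads was -6.29 (95% counting interval -12.18 to -4.37). These intervals cover counting error only. In bulk RNA, fewer cells of a type and less RNA per cell cannot be told apart.

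The pair on chromosome 13 had another pattern. COL4A2 (ENSG00000134871.20, 110305812 to 110513209, plus strand) encodes the alpha 2 chain. It had 45 reads in the control, 60 after knockdown, 14 after azacytidine and 58 after both, or 72.6, 87.6, 28.3 and 120 CPM. The azacytidine library was the lowest and the combined library the highest. Between azacytidine and control the log2 ratio was -1.32 (95% counting interval -2.34 to -0.47), and between the combined and the knockdown library it was 0.45 (-0.10 to 1.00), or -0.38 when only reads on transcripts were counted.

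COL4A1 (ENSG00000187498.17, chromosome 13, 110148963 to 110307202, minus strand) encodes the alpha 1 chain, the partner of alpha 2. It had 13 reads in the control, 7 after knockdown, 0 after azacytidine and 12 after both, or 21.0, 10.2, 0 and 24.8 CPM. Again the azacytidine library was the lowest and the combined library the highest, but the control and the combined library lay within each other's counting intervals. With 3 reads in place of 0, COL4A1 was 3.45-fold lower with azacytidine than in the control. The counting interval of that log2 ratio ended at -1.28. From knockdown to the combined library the log2 ratio of COL4A1 was 1.24 (-0.18 to 2.86). The annotated spans of COL4A1 and COL4A2 overlap at their starts and the counting is not stated to use strand, so reads there cannot be assigned to 1 gene with certainty.

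The pair of the kidney filter was almost silent. COL4A3 (ENSG00000169031.21, chromosome 2, 227164624 to 227314792, plus strand) had 3, 1, 1 and 0 reads in the same order. COL4A4 (ENSG00000081052.14, chromosome 2, 227002714 to 227164453, minus strand) had 2, 1, 0 and 2. Both missed the mean of 5 reads that a gene needed to be tested, so no difference could be detected at this depth, and 4 of 6 members were tested. At the floor of 3 reads, levels under 4.38 to 6.19 CPM could not be told from 0, depending on the library.

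Summed over the 6 genes, type IV collagen stood at 390 CPM in the control, 508 after knockdown, 30.4 after azacytidine and 151 after both. What was left in the azacytidine library was almost all COL4A2, and in the combined library COL4A2 and COL4A1.

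**Figure D2:**
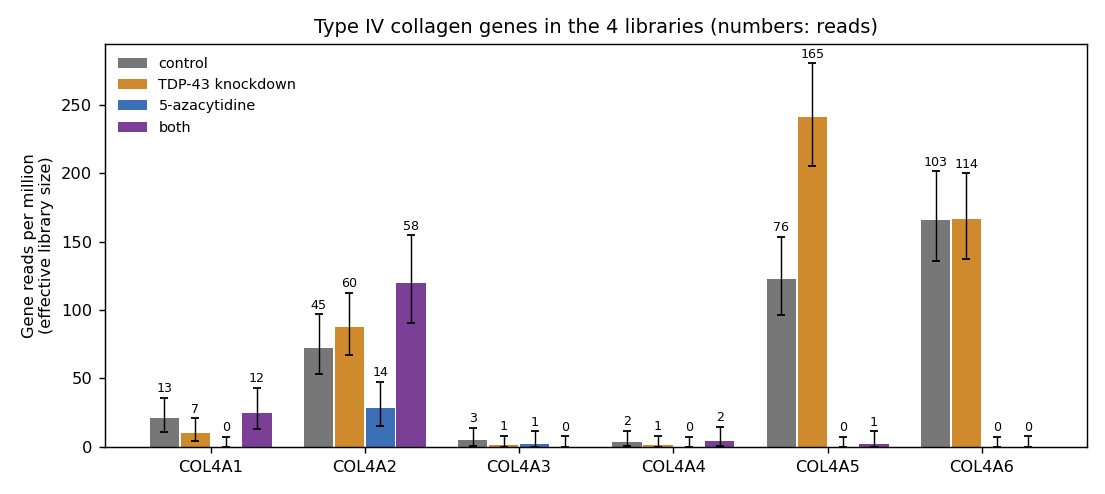
Level of each type IV collagen gene in the 4 libraries, in CPM scaled by edgeR's TMM factors, with exact 95% Poisson counting intervals. COL4A5 and COL4A6 lie at 123 to 241 CPM without azacytidine and at 0 to 2.06 CPM with it, while COL4A2 lies at 28.3 CPM with azacytidine and 120 CPM in the combined library.

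Against the knockdown alone, the X-linked neighbours parted. COL4A5 was higher with the knockdown, at 165 against 76 reads, a log2 ratio of 0.97 (95% counting interval 0.57 to 1.39, adjusted p = 1.99e-05, exact binomial test with Benjamini-Hochberg adjustment over 13789 genes). This is under the log2 ratio of 1 that a call required. COL4A6 stood at 166 CPM in both libraries, with a log2 ratio of 0.001 (-0.40 to 0.40, adjusted p = 1). The difference between these ratios was not tested. Reads assigned to COL4A5 transcripts moved less, from 40 to 65, with a log2 ratio of 0.60 and an adjusted p of 0.321. The median ratio of all genes tested in this pair was 0.13, and it was -0.09 when libraries were scaled by total counts, which put COL4A5 at 0.75.

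In the presence of azacytidine, the pair on chromosome 13 was higher with the knockdown. COL4A2 rose from 14 to 58 reads, a log2 ratio of 2.04 (1.22 to 3.04, adjusted p = 6.17e-06). COL4A1 rose from 0 to 12 reads, at least 4.08-fold (adjusted p = 0.0045). Of all genes tested, 3.71% were higher by the same rule in this pair of libraries. Without azacytidine, where 8.55% of genes were called in either direction, neither passed: the log2 ratio of COL4A2 was 0.27 (-0.31 to 0.86, adjusted p = 0.654) and that of COL4A1 was -0.99 (-2.60 to 0.39, adjusted p = 0.345). No member was called in both pairs of libraries, where 0.776% of all genes tested were.

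Both rises rested in large part on reads that fitted no annotated transcript. All 12 COL4A1 reads of the combined library were assigned to the gene but to no transcript, as were 33 of its 58 COL4A2 reads. In the azacytidine library all 14 COL4A2 reads were on transcripts. Counting only reads on transcripts, COL4A2 stood at 14 and 25, with a log2 ratio of 0.98 and an adjusted p of 0.377, and the call was lost. COL4A1 then had 0 reads in both. Over all genes, 68.1% of reads in the azacytidine library and 60.4% in the combined library were on transcripts.

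**Figure D3:**
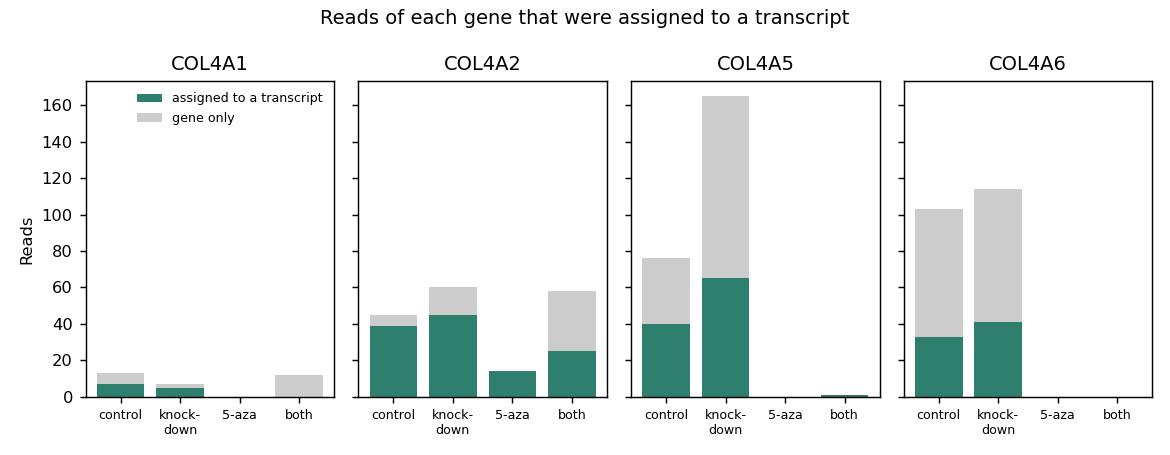
Reads of COL4A1, COL4A2, COL4A5 and COL4A6 in each library, split into reads assigned to an annotated transcript and reads assigned to the gene alone. The 12 COL4A1 reads of the combined library are all of the second kind, as are 33 of 58 COL4A2 reads there.

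The members also differed in how many of their reads matched a known transcript. Over the 4 libraries this was 34.1% for COL4A6, 37.5% for COL4A1, 43.8% for COL4A5 and 69.5% for COL4A2, against a median of 67.8% over the genes tested. The extended annotation held 84 transcripts of these genes, none of them unannotated. Reads were seldom full-length: 6 of 74 transcript reads of COL4A6 (8.11%), 1 of 105 of COL4A5 (0.952%) and 7.26 of 84 of COL4A2 (8.64%, an estimated count), in the control and knockdown libraries together. Other transcripts of 6000 to under 7000 bases reached 14.2% in the same libraries. The COL4A6 and COL4A2 figures are over all their transcripts, some of them shorter. Of the 6 full-length COL4A6 reads, 2 were on ENST00000461897.5, of 1889 bases.

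COL4A5 reads pointed to 1 splice form. A longer transcript, ENST00000328300.11 with 53 exons, holds 2 exons of 9 bases that ENST00000361603.7, with 51 exons, lacks. They are exons 42 and 43 of the longer form, both coding, at X 108670228 to 108670236 and 108674745 to 108674753, and they add 6 codons to the collagen repeat. The sequences across the junction are taken from GENCODE 29, with the 18 added bases in capitals and 30 bases on each side.

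COL4A5 with both exons: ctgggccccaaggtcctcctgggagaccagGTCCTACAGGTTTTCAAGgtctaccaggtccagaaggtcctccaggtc
COL4A5 without them: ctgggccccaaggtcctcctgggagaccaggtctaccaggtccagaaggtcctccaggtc

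All 40 transcript reads of the control and all 65 of the knockdown were assigned to the form without these exons, 18 and 37 of them uniquely. None was assigned to the longer form. Of the uniquely assigned reads, 0 of 55 allows a share of up to 5.45%. The rest of the 105 reads were placed by estimation and set no limit of their own. The forms also differ in their start, at 108439838 against 108439924, and which of these features decided an assignment is not recorded. The only COL4A5 read of the combined library was divided equally between them.

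Reads of COL4A6 were assigned to both of its starts. The start next to COL4A5, at 108439472, is that of ENST00000372216.8, and the inner start at about 108438430 serves ENST00000334504.12, ENST00000461897.5, ENST00000538570.5 and ENST00000621266.4. The RefSeq starts are 1036 bases apart. The outer start took 19.03 of 33 estimated transcript reads in the control (57.7%, Wilson 95% interval 40.8 to 72.8%) and 25.85 of 41 with the knockdown (63.1%, 48.1 to 76.4%). These intervals treat estimated reads as counted ones and leave out the error of assignment. Of 12 uniquely assigned reads in these libraries, 4 were at the outer start and 8 at the inner. Of 6 full-length reads, 2 were at the outer start and 4 at the inner. Estimated reads therefore put the larger part at another start than uniquely assigned and full-length reads did. Neither start had a read in the azacytidine or the combined library.

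COL4A2 reads went mainly to ENST00000360467.7, the form of 48 exons that starts opposite COL4A1. It took 29.4 of 39 estimated reads in the control (75.4%), 29.1 of 45 with the knockdown (64.6%), 7.78 of 14 with azacytidine (55.5%) and 24.3 of 25 with both (97.3%). ENST00000650225.1, a retained-intron form of 19 exons that starts far inside the gene, took 8.59, 4.85, 6.22 and 0.663. ENST00000400163.8, which starts upstream of the shared promoter at 110305812 within COL4A1, had 6.91 reads with the knockdown and 0 elsewhere. ENST00000650540.1 had 1 and 3.13 reads in the control and knockdown libraries. The share of ENST00000360467.7 differed with the knockdown by -9.91 percentage points without azacytidine (adjusted p = 0.876, Fisher's exact test) and by 38.9 with it (adjusted p = 0.0911). Of the 3 member transcripts with enough reads to be tested, none was called in both pairs, where 0.702% of 15531 transcripts were, and 14 and 25 reads carry the larger of these differences. COL4A1 had 7 and 2.48 reads on ENST00000375820.10, which starts at the shared promoter, in the control and knockdown libraries.

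Of the 12 nearest tested genes beside the 3 pairs, 1 was called in both pairs of libraries for either treatment. Of all genes tested, 6.17% were lower and 2.48% higher with azacytidine in both pairs, and 0.776% were called with the knockdown. On chromosome X, ATG4A, a protease of autophagy that lies 936 bases past the 3′ end of COL4A6, had 26 reads in the control, 16 after knockdown, 22 after azacytidine and 28 after both. Its neighbour PSMD10 had 16, 7, 13 and 10. On the other side IRS4, an insulin receptor substrate that lies 22401 bases past COL4A5, had 20, 27, 1 and 0, and fell with azacytidine in both pairs (adjusted p = 0.00113 and 1.07e-05, exact binomial test). NXT2, beyond it, had 16, 25, 7 and 6 and did not pass. Of 481 chromosome X genes tested, 33 (6.86%) were lower with azacytidine in both pairs, COL4A5 and COL4A6 among them, near the 6.17% of all genes.

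Around COL4A1 and COL4A2, no neighbour was called in both pairs for either treatment. IRS2 had 22, 22, 22 and 6 reads, NAXD 69, 86, 110 and 85, and CARS2 68, 38, 56 and 66. Around COL4A3 and COL4A4, RHBDD1 had 38, 82, 46 and 76 reads, MFF 111, 178, 79 and 85, AGFG1 87, 213, 78 and 88, and IRS1 46, 74, 19 and 28. RHBDD1 lies 3499 bases from the COL4A3 and COL4A4 pair and MFF 10359. Each of the 3 pairs has a gene for an insulin receptor substrate beside it.

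Other genes with a profile close to the members were taken by the distance between log2 levels centred over the 4 libraries, among 8144 other genes that averaged 20 reads or more. This is a description over 4 points, and genes that reach 0 reads are placed by the pseudocount. Nearest to COL4A5 were LEF1 (39, 71, 0 and 1 reads), a transcription factor of Wnt signalling, and SULF1 (200, 250, 2 and 4), an enzyme that trims heparan sulphate. EHBP1-AS1 (28, 70, 0 and 0), PAX6 (290, 313, 3 and 4) and FGFR2 (68, 217, 1 and 3) followed. Nearest to COL4A6 were KITLG (63, 230, 0 and 0), COL4A5 itself, EHBP1-AS1, PAX6 and MKI67 (142, 154, 2 and 1). PAX6 marks neural progenitors and MKI67 dividing cells. COL4A6 stood at rank 6 from COL4A5, and from COL4A2 the X-linked genes stood at ranks 8137 and 8142, near the end of the list. The genes nearest to COL4A2 were ENSG00000290705, TIMM23B-AGAP6, DBF4B, MUC20-OT1 and SLC4A5, of which TIMM23B-AGAP6 shares sequence with other genes and is uncertain.

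The other genes of the basement membrane and of collagen assembly were taken from 6 lists, with 85 of their 105 genes tested. With azacytidine 18 fell in both pairs (21.2%) and 1 rose (1.18%), against 6.17% and 2.48% of all genes tested. The median log2 ratios of these 85 genes were -0.41 and -0.48, against 0.06 and -0.09 for all genes. With the knockdown 1 rose and 0 fell in both pairs, against 0.471% and 0.305% of all genes. The lists were written with results of these data known. In place of these 19 azacytidine calls, there were 10 among genes that averaged 20 reads or more, 7 on uniquely assigned reads, 1 on full-length reads and 2 by the additive DESeq2 model.

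Laminins are the other network of the basement membrane, and 3 of 9 tested fell with azacytidine in both pairs, against 6.17% of all genes. LAMA1, the chain of early embryonic laminin, had 69 reads in the control, 124 after knockdown, 8 after azacytidine and 10 after both, with log2 ratios of -2.70 and -3.07. LAMB2 had 32, 53, 6 and 5 reads (-1.99 and -2.78) and LAMC1 58, 73, 18 and 25 (-1.33 and -1.03). Their largest adjusted p-values were 0.00286 and 0.00609 in the pairs.

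Among 17 other basement membrane components, 6 fell, again against 6.17% of all genes tested. NID1 and NID2, the nidogens that link laminin to type IV collagen, had 24, 30, 1 and 2 reads and 13, 20, 0 and 1. SMOC1 had 20, 26, 0 and 1 reads, and FREM2, of the complex that anchors epidermis, had 18, 24, 2 and 0. The others were HSPG2, which encodes perlecan, and FRAS1, named after their values were seen. Largest adjusted p-values were 0.00995 and 0.00143. In the pair with azacytidine, where 3.71% of all genes tested were higher with the knockdown, 2 of the 17 rose, AGRN from 59 to 159 reads (log2 ratio 1.45, adjusted p = 6.82e-10) and COL18A1 from 15 to 47 (1.64, adjusted p = 0.00101). Both encode heparan sulphate proteoglycans and were picked for mention once their values were known.

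Of 23 genes that modify, fold and export collagen, 3 fell with azacytidine in both pairs, against 6.17% of all genes, and the medians of the list were -0.14 and -0.04. P3H2, a prolyl 3-hydroxylase that acts on type IV collagen, had 30, 39, 2 and 5 reads. FKBP10, a collagen chaperone, had 60, 58, 5 and 12 (log2 ratios -3.13 and -1.73), and P4HA1, a subunit of prolyl 4-hydroxylase, had 33, 120, 10 and 11 (-1.35 and -2.89). Largest adjusted p-values were 0.0294 and 0.000194. The 1 pathway gene called with the knockdown was CERT1, a ceramide carrier that was first described as a binder of the type IV collagen alpha 3 chain, at 64, 225, 30 and 100 reads. Its log2 ratios were 1.66 and 1.75 (adjusted p = 1.96e-16 and 2.84e-08). Of the 6 enzymes of network crosslinking, none was called for either treatment, and PXDN, the peroxidasin that crosslinks type IV collagen, had 104, 132, 68 and 94 reads.

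Among 20 receptors, 5 fell with azacytidine and 1 rose, against 6.17% and 2.48% of all genes tested. ITGB8 had 20, 22, 0 and 0 reads, SDC4 12, 11, 0 and 0, ITGB5 37, 31, 6 and 2 and ITGA6, of the laminin receptors, 57, 116, 7 and 22. ITGAV was the other that fell. ITGA3, also a laminin receptor chain, rose from 17 to 31 and from 25 to 58 reads (log2 ratios 1.18 and 1.70). Largest adjusted p-values of the receptor calls were 0.0300 and 0.0143. ITGB1, the shared chain of the collagen-binding integrins, had 199, 251, 120 and 127 reads and was not called. Of 10 proteases and inhibitors 1 fell, near the 6.17% of all genes tested. This was ADAMTS9, with 69, 98, 2 and 9 reads (adjusted p = 2.86e-13 and 1.40e-12, exact binomial test).

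**Figure D4:**
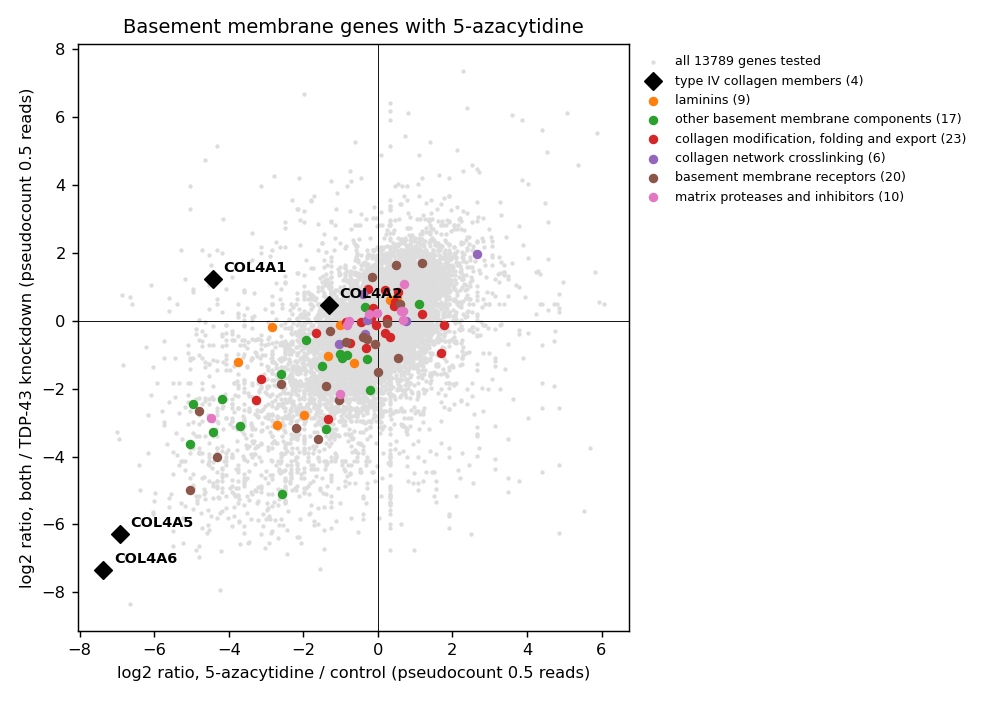
Log2 ratio with azacytidine of the basement membrane and collagen assembly genes tested, without the knockdown (x axis) and with it (y axis), with a pseudocount of 0.5 reads, so that genes with 0 reads are not at their bounds. COL4A5 and COL4A6 lie at the lower left, COL4A2 near the vertical middle at -1.32 and 0.45, and the 18 genes called lower lie on the same side as COL4A5.

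Markers of other cells moved with the X-linked pair. Of 9 neural progenitor markers tested, 6 fell with azacytidine in both pairs, against 6.17% of all genes tested. The summed level of the list was 1408 and 1424 CPM without azacytidine and 330 and 305 with it. Of 10 proliferation markers, 10 fell, from 1450 and 1658 CPM to 148 and 88.7. Neuronal markers stood at 2634 and 2844 CPM without azacytidine and at 2884 and 2082 with it. The part of these cells in the collagen values was not tested.

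Markers of cells that are rich in type IV collagen elsewhere had lower summed levels than the neuronal markers in every library. Cell numbers were not measured. Endothelial markers summed to 67.8, 93.4, 48.6 and 37.1 CPM, and the defining PECAM1, CDH5 and CLDN5 had 0 to 2 reads in each library. Of 3 endothelial markers tested, TEK fell with azacytidine and ERG rose with the knockdown, at 1, 25, 0 and 12 reads in the usual order. FLT1, the other one tested, had 21, 15, 9 and 4. Of all genes tested, 6.17% fell with azacytidine and 0.471% rose with the knockdown in both pairs. Fibroblast markers summed to 88.7, 89.0, 14.2 and 4.13 CPM, with COL1A1 at 33, 40, 2 and 0 reads and no read of DCN, TWIST1 or PRRX1 in any library. Pericyte markers stood at 134, 155, 36.4 and 53.6 CPM and neural crest markers at 132, 112, 36.4 and 26.8. Astrocyte markers stood at 195, 197, 101 and 94.9 CPM, with 2 of 3 tested lower with azacytidine and no read of AQP4. Pluripotent cell markers stood at 403, 489, 320 and 355 CPM, with 1 of 3 tested lower, and epithelial markers at 118, 94.8, 105 and 94.9, with none of 3 called. The fibroblast, pericyte, neural crest and astrocyte sums were lower with azacytidine together with COL4A5 and COL4A6, and their part in the result was not tested.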

How the data were processed

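Long reads of polyadenylated RNA were aligned to hg38 with minimap2 and assigned to genes and transcripts by Bambu, per the file headers and the submitters' processing notes; versions are not given in the sources used here. The authors deposited estimated counts per gene and per transcript, estimated full-length counts, and counts of reads unique to a transcript. A deposited CPM table was not used. All deposited gene counts lay within 0.00031 of an even number, so values were divided by 2 to give reads; the sources do not state why.

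Gene symbols came from the reference gene names for 60555 of 77186 Ensembl identifiers (78.5%). Libraries were scaled with TMM factors (edgeR 4.0.16, R 4.3.3), and CPM are reads scaled to these library sizes. Genes that averaged 5 reads or more were tested by a two-sided exact binomial test of the reads of 2 libraries (scipy 1.17.1), with Benjamini-Hochberg adjustment over 13789 genes. This stands in for a replicated count test, which 1 library per group does not allow. A call needed an adjusted p under 0.05 and a log2 ratio of 1 or more in size, with a pseudocount of 0.5 reads, and the call in both pairs needed the same direction in the 2 pairs that share no library. Transcript shares were tested by Fisher's exact test on rounded reads, for transcripts of at least 10 reads in genes that averaged 20. Procedures were tested on simulated data. Intervals are exact 95% counting intervals, except where Wilson is named.

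The members and gene lists were chosen with earlier results of these data known. Named were the members, the 2 nearest tested genes on each side of a pair, the 5 nearest profiles of members that averaged 20 reads or more, and at most 4 called genes per list and treatment, by the size of the smaller ratio. Alternatives were DESeq2 (1.42.0) size factors, total counts, other filters and pseudocounts, transcript-level counts, counts as deposited and additive models in edgeR and DESeq2.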

Additional observations from a re-analysis of the deposited data

Results flagged for a closer look

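For COL4A1 with either treatment, and for COL4A2 with azacytidine, the ratios of the 2 pairs of libraries that measure the same treatment had opposite signs. The log2 ratio of COL4A1 with the knockdown was -0.99 without azacytidine and 2.03 with it, the second set against the limit of 3 reads that a count of 0 allows. Its log2 ratio with azacytidine was -1.79 without the knockdown, again against that limit, and 1.24 with it. For COL4A2 the ratio with azacytidine was -1.32 without the knockdown and 0.45 with it. With 1 library per group, the difference between the pairs was not tested. In each case 1 ratio had a counting interval that includes 0: -2.60 to 0.39 for COL4A1 with the knockdown, -0.18 to 2.86 for COL4A1 with azacytidine and -0.10 to 1.00 for COL4A2. Counting only reads on transcripts, the COL4A2 ratios were -1.24 and -0.38, of the same sign. The COL4A1 values rest on 0 to 13 reads.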

How the results depend on the processing

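Of the values recomputed under alternatives, 119 stayed within the set bounds, 26 moved further and 5 changed sign. In 5 others the adjusted p was no longer under 0.05. For a tested ratio the bounds were the same direction and the same side of that adjusted p. They were within 1.5 times for a count and within counting error for a ratio without a test. Against 107 genes called with the knockdown, 11 were called on transcript sums, 5 on full-length counts, 14 on uniquely assigned counts, 319 on counts as deposited, 10 by the additive DESeq2 model and 0 by the additive edgeR model, where 1180 had an unadjusted p under 0.05. Against 1193 genes called with azacytidine, these settings gave 579, 44, 279, 1790 and, for DESeq2, 203. Of pathway genes, 1 was called with the knockdown, but 3 on counts as deposited and 0 on transcript sums, full-length counts, uniquely assigned counts and in both additive models. With azacytidine 19 were called, but 10 among genes averaging 20 reads or more, 1 on full-length counts, 7 on uniquely assigned counts and 2 by DESeq2. Of the knockdown calls 60.7% were higher, 53.7% with DESeq2 size factors and 33.0% with total counts. The COL4A2 ratio with the knockdown under azacytidine was 0.98 on transcript sums. The COL4A5 ratio with the knockdown was 0.60 on transcript sums, 0.91 on uniquely assigned counts, 1.01 in edgeR and 1.03 in DESeq2, with an adjusted p above 0.05 in each (0.321, 0.344, 0.547 and 1.000). That of COL4A6, near 0, was -0.10 with DESeq2 size factors, -0.22 with total counts, -0.000901 with a pseudocount of 2 and -0.047 in DESeq2. The COL4A2 ratio with azacytidine under the knockdown was -0.38 on transcript sums. With 3 reads in place of 0, transcript sums gave ratios of -3.26 and -3.31 for COL4A6 with azacytidine and -3.53 for COL4A5. On uniquely assigned counts COL4A5 gave -2.52 and -3.20. The cause was not tested, apart from the fewer reads that transcript-level counts hold. With azacytidine, additive model values were compared only for COL4A2 among the members. For COL4A1 with the knockdown, which had 0 reads in the azacytidine library, they were 0.80 in edgeR and 1.77 in DESeq2. The mean of both pairs was 1.84 with the pseudocount of 0.5 reads. Full-length and uniquely assigned counts left no member transcript to test. No paired analysis was possible because each group has 1 library and the groups share fewer than 2 replicate numbers.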
